A study of Mus musculus with 16 samples.

Results

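The genes examined here are 10 that are used to recognise sensory hair cells, the mechanoreceptors of the cochlea and of the vestibular organs. They are the calcium buffers Calb1, Calb2, Pvalb and Ocm, the myosin motors Myo7a, Myo6 and Myo1c, and the transcription factors Atoh1, Pou4f3 and Gfi1. Members were taken by symbol: every probe set whose single gene symbol in the platform annotation is one of the 10. This gave 12 probe sets of 9 genes among the 12422 probe sets tested, which name 8251 genes, and no probe set carried the symbol Pou4f3. Pvalb has 2 probe sets and Myo6 has 3. The rule uses no measured value.

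A hair cell carries a bundle of actin-filled stereocilia on its upper surface, and deflection of the bundle opens channels that let potassium and calcium in. Unconventional myosins build, anchor and tension the bundle, and mobile EF-hand proteins bind the calcium that enters at the bundle and at the synapse. In the mouse, Atoh1 is required for hair cells to form, and Pou4f3 and Gfi1 for their later differentiation and survival. Several of the 10 genes are also used by other cells: the calbindins and parvalbumin by neurons, parvalbumin by fast skeletal muscle and Gfi1 by blood cell precursors.

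The RNA came from whole inner ears of newborn (P0) mice of strain 129SvEv, either COUP-TFI-/- or wild-type. COUP-TFI-/- mice lack the nuclear receptor encoded by Nr2f1, and no other allele or treatment is given for either genotype. Each RNA pool combined tissue from several animals, whose number is not given in the sources used here. There were 2 pools per genotype, 1 in hybridization set A and 1 in set B, which were run at different times, and each pool was hybridized to 2 Affymetrix MG-U74Av2 chips, so 8 chips were measured in all. In whole tissue, fewer cells of a type and less RNA per cell cannot be told apart, and hair cells make up a small part of the inner ear.

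Each chip was deposited with a GCRMA value, on the log2 scale, and with a dChip value, a linear intensity. Median chip values were 7.20 to 7.23 for GCRMA and 291 to 305 for dChip. Duplicate chips correlated (across probe sets, which are no independent replicates) at 0.996 to 0.997 for GCRMA, and chips of 1 genotype in different sets at 0.979 to 0.987. Nr2f1, the deleted gene, read 4.68 to 5.27 on the COUP-TFI-/- chips and 7.74 to 8.83 on the wild-type chips in GCRMA, and its difference of -3.37 (adjusted p = 5.9e-11 from limma) ranked 1 of all probe sets. All differences between genotypes below are log2 differences, COUP-TFI-/- minus wild-type. Each was tested with limma on 4 pool means (n = 2 pools per genotype, each the mean of its duplicate chips), taking the hybridization set as a block. The standard error (SE) comes largely from the variance that limma pools over the whole chip, so the spread of a single gene is better read from its separate values in sets A and B.

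None of the 12 hair cell probe sets passed an adjusted p under 0.05 for genotype in GCRMA, where 0.105% of all probe sets did. In dChip none passed either, where 0.00805% of all probe sets did. At an unadjusted p under 0.05, 2 of 12 passed in GCRMA, against 4.58% of all probe sets. These were Calb1 and Calb2, both lower in COUP-TFI-/-, as 1.97% of all probe sets were at that p. In dChip 0 of 12 passed the unadjusted threshold, against 2.13% of all probe sets. The median absolute genotype difference of the members was 0.11 in GCRMA, where that of all probe sets was 0.06, and 0.09 in dChip, where that of all probe sets was 0.07. Their median signed difference was -0.02 in GCRMA, beside 0.00 for all probe sets. The median SD between duplicate chips in GCRMA was 0.09 for the members and 0.09 for all probe sets.

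**Figure D1:**
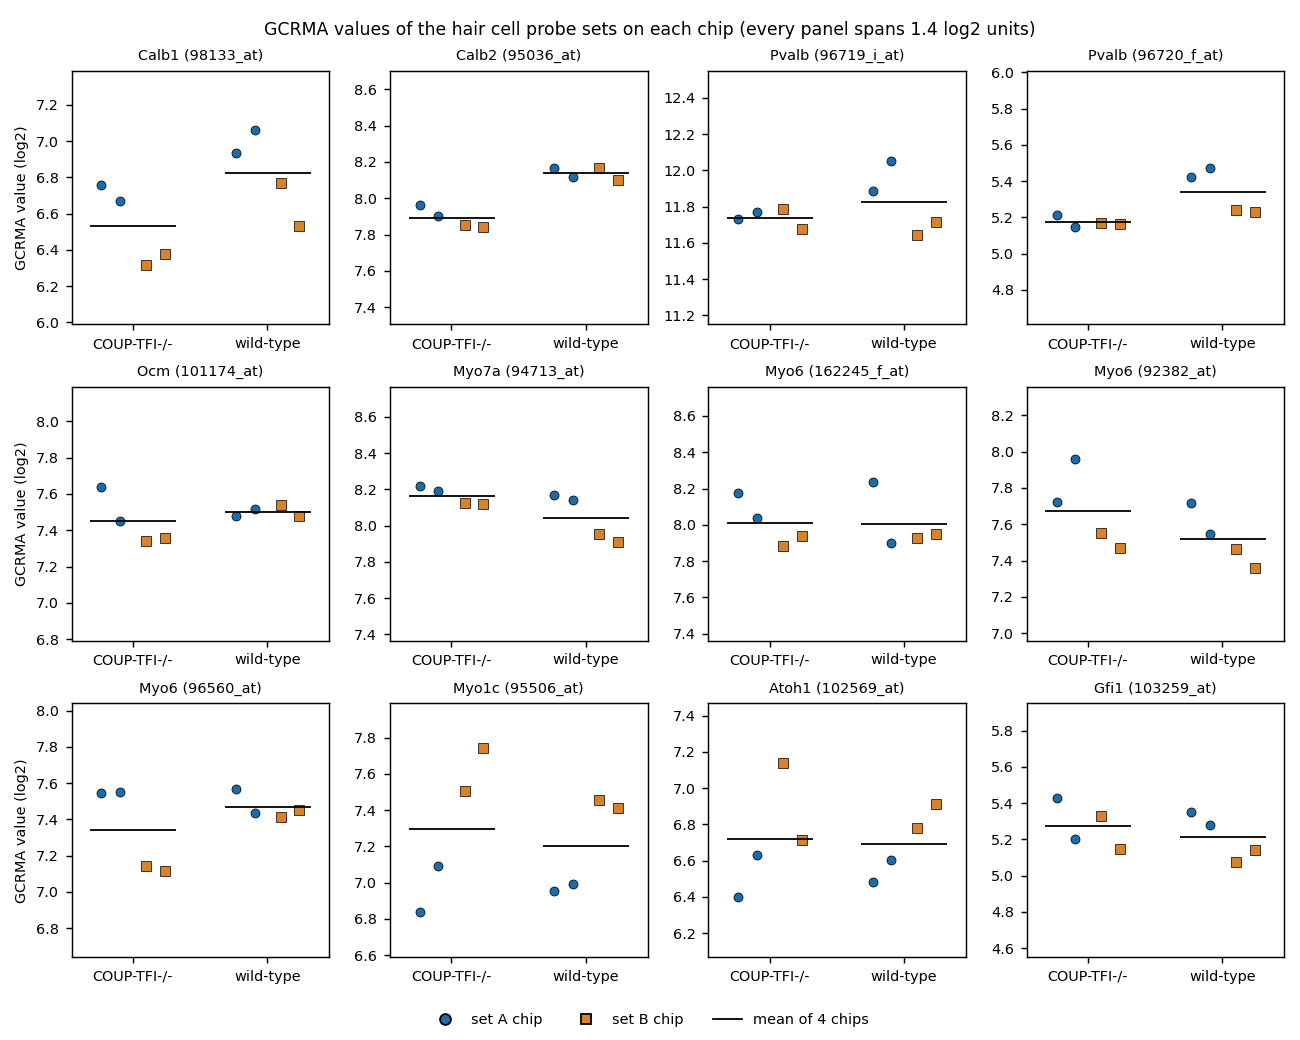
GCRMA value (log2) of each of the 12 probe sets on each of the 8 chips. Every panel spans the same range in log2 units. COUP-TFI-/- chips are on the left and wild-type chips on the right of each panel, circles are set A, squares are set B, and the line is the mean of 4 chips. For Calb2 the COUP-TFI-/- chips lie between 7.84 and 7.96 and the wild-type chips between 8.10 and 8.17, while for Atoh1 and Myo1c the squares lie above the circles in both genotypes.

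Calb1 encodes calbindin, a fast calcium buffer of cochlear hair cells and of many neurons. Its probe set 98133_at read 6.76 and 6.67 on the COUP-TFI-/- chips of set A and 6.31 and 6.38 on those of set B in GCRMA. The wild-type chips read 6.93 and 7.06 for set A and 6.77 and 6.53 for set B. Within each set both COUP-TFI-/- chips were below both wild-type chips, but across the sets the genotypes overlapped, since the wild-type chips of set B lay at the level of the COUP-TFI-/- chips of set A. The difference was -0.29 within set A and -0.30 within set B, with a mean of -0.29 ± 0.10 (SE, 95% interval -0.50 to -0.09). The limma p was 0.0072 before and 0.71 after adjustment over all probe sets. Pool means were 6.53 ± 0.26 in COUP-TFI-/- and 6.82 ± 0.25 in wild-type (SD, n = 2 pools each), a ratio of 0.815.

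In dChip the same probe set had intensities of 255 and 268 on the set A COUP-TFI-/- chips and of 203 and 228 on the set B ones. The wild-type intensities were 274 and 284 for set A and 219 and 275 for set B. Here the genotypes overlapped within set B, where wild-type chip B1 lay below the COUP-TFI-/- chip B2. The dChip difference was -0.09 within set A and -0.19 within set B, with a mean of -0.14 ± 0.10 (SE, 95% interval -0.40 to 0.12, adjusted p = 1.00 from limma). Both normalizations thus gave a lower Calb1 value in both sets, and neither gave a call.

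Calb2 encodes calretinin, the related buffer found in inner hair cells and in ganglion neurons that contact them. In GCRMA its probe set 95036_at read 7.96, 7.90, 7.85 and 7.84 on COUP-TFI-/- chips A1, A2, B1 and B2. On the wild-type chips in the same order it read 8.17, 8.12, 8.17 and 8.10. All 4 COUP-TFI-/- chips were below all 4 wild-type chips, which held for 2 of the 12 probe sets and for 0.910% of all probe sets. In dChip this held for 0 of 12 and for 0.853% of all probe sets. The GCRMA mean was 7.89 ± 0.06 in COUP-TFI-/- and 8.14 ± 0.01 in wild-type (SD, n = 2 pools each). The difference was -0.21 within set A and -0.29 within set B, with a mean of -0.25 ± 0.10 (SE, 95% interval -0.45 to -0.05), and the limma p was 0.020 before and 0.909 after adjustment.

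Calb2 intensities in dChip were 450, 387, 444 and 441 on the COUP-TFI-/- chips and 442, 476, 558 and 529 on the wild-type chips, in the same order. In set B the genotypes were apart, and in set A the COUP-TFI-/- chip A1 lay above the wild-type chip A1. The dChip differences were -0.14 within set A and -0.29 within set B, with a mean of -0.21 ± 0.11 (SE, adjusted p = 1.00 from limma). Calb1 and Calb2 were the only 2 of the 12 probe sets that were lower in COUP-TFI-/- in both sets and both normalizations, which 10.4% of all probe sets were. A single one of the 12, a Myo6 probe set, was higher in both sets and both normalizations, against 11.5% of all probe sets.

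Genes of neurons and of supporting cells stood beside these calbindin values. Of 24 listed ganglion neuron genes, all measured, 0 passed the adjusted p, 2 were lower at an unadjusted p under 0.05 and 0 were higher, and the median difference was -0.09, beside 0.00 for all probe sets. By direction alone, 17 of the 24 were lower and 7 higher. Their summed level, on the linear scale of the GCRMA values, was 9258 to 9652 on COUP-TFI-/- chips and 9506 to 9827 on wild-type chips in set A. In set B it was 6914 to 6945 on COUP-TFI-/- chips and 7359 to 7903 on wild-type chips. The neuron sum was thus lower in COUP-TFI-/- in set B and overlapped between genotypes in set A. In GCRMA Calb1 and Calb2 were lower without overlap in both sets, while in dChip Calb1 overlapped in set B and Calb2 in set A.

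Of 25 supporting cell genes, 18 were measured. Fabp7, a fatty acid binding protein of glial and supporting cells, fell by 0.58 in GCRMA (adjusted p = 0.039 from limma), while its dChip difference of -0.42 was not called. Tectb, a protein of the tectorial membrane, had a difference of -0.48, Sox2, a factor of the prosensory domain, of -0.36 and Gjb2, a gap junction subunit, of -0.29, each at an unadjusted p under 0.05. Of the 18 genes, 12 were lower and 6 higher, and the list's median was -0.03. Summed over the list, supporting cell genes gave 6447 to 6503 on COUP-TFI-/- chips and 7260 to 7540 on wild-type chips in set A, and 5122 to 5426 on COUP-TFI-/- chips and 6056 to 6200 on wild-type chips in set B. Of 20 cerebellum and brain genes, 14 were measured and 12 of them were lower, with a median of -0.06. Gad1, an enzyme of GABA synthesis, had a difference of -0.43 and Ttr, the transthyretin of the choroid plexus, one of -0.28, each at an unadjusted p under 0.05 and not past the adjusted one. In dChip 3 genes of this list were lower at an unadjusted p under 0.05 and 1 was higher, Gad2, a second enzyme of GABA synthesis, by 0.35. Gad1 lay low, above 18.5% of all probe sets in GCRMA, and 5 of the 14 genes lay in the lowest 25% of the chip. The cerebellum and brain list summed to 3544 to 3615 on COUP-TFI-/- chips and 3964 to 4024 on wild-type chips in set A, and to 3028 to 3081 on COUP-TFI-/- chips and 3161 to 3182 on wild-type chips in set B. The sums of supporting cell genes and of cerebellum and brain genes were thus lower in COUP-TFI-/- in both sets without overlap of chips, as Calb1 and Calb2 were in GCRMA. Such a linear sum gives most weight to the genes with the highest values, among them Fabp7 and Gjb2 in the supporting cell list. The study reports Fabp7, Tectb and Gjb2 among its hits from these same chips, so the sum of a list that holds them is no independent evidence. By medians the lists stood differently than by sums. The median difference of the supporting cell list was -0.05 within set A and -0.05 within set B. For the cerebellum and brain list it was -0.02 within set A and -0.12 within set B, and for the ganglion neuron list 0.00 and -0.10. The part of neurons, supporting cells or brain tissue in the calbindin values was not tested.

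Pvalb encodes parvalbumin, a slow calcium buffer of inner hair cells, of some neurons and of fast skeletal muscle. Its probe set 96719_i_at, whose suffix marks a probe set with fewer probes than usual, read higher than 99.0% of all probe sets on an average chip. It read 11.73, 11.77, 11.79 and 11.67 in GCRMA on COUP-TFI-/- chips A1, A2, B1 and B2, and 11.89, 12.05, 11.65 and 11.72 on the wild-type chips. COUP-TFI-/- was below wild-type in set A, and the genotypes overlapped in set B. The difference was -0.22 within set A and 0.05 within set B, with a mean of -0.09 ± 0.10 (SE, adjusted p = 1.00 from limma). In dChip it was -0.22 within set A and 0.18 within set B. Those dChip intensities were 3091 and 3040 on COUP-TFI-/- chips and 3594 and 3542 on wild-type chips in set A, and 3387 and 3215 on COUP-TFI-/- chips and 2865 and 2948 on wild-type chips in set B. The genotypes did not overlap in either set, and the sets gave opposite directions.

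The second Pvalb probe set, 96720_f_at, shares its probes with a family of sequences and lay close to the bottom of the chip, above 16.8% of all probe sets in GCRMA and 7.49% in dChip. In GCRMA it read 5.21, 5.15, 5.17 and 5.16 on COUP-TFI-/- chips A1, A2, B1 and B2 and 5.42, 5.47, 5.24 and 5.23 on wild-type chips. All 4 COUP-TFI-/- chips were below all 4 wild-type chips, by a difference of -0.27 within set A and -0.07 within set B and a mean of -0.17 ± 0.10 (SE, adjusted p = 1.00 from limma). In dChip the difference was -0.29 within set A and 0.04 within set B, where the genotypes overlapped. In GCRMA the 2 probe sets thus had the same direction in set A and not in set B. In dChip the differences of both were negative in set A and positive in set B. No single value could be given for Pvalb.

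Fast muscle genes stood beside Pvalb. Of 22 listed, 21 were measured, with a median genotype difference of 0.01 within set A and 0.92 within set B. Myh3 and Myh8, the embryonic and perinatal myosin heavy chains, rose by 0.80 (adjusted p = 0.014 from limma) and 0.98 (adjusted p = 0.0092) in GCRMA, while their dChip differences of 0.82 and 0.95 were not called. Summed over the list, muscle genes gave 21691 and 22978 on the COUP-TFI-/- chips of set B, against 12177 and 11556 on its wild-type chips, and 20052 to 20374 on the COUP-TFI-/- chips of set A, against 19901 to 20379 on its wild-type chips. The wild-type pool of set B was therefore the lowest in muscle genes, and it was also the lowest in the dChip intensity of Pvalb 96719_i_at. The part of muscle tissue in the Pvalb values was not tested.

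**Figure D2:**
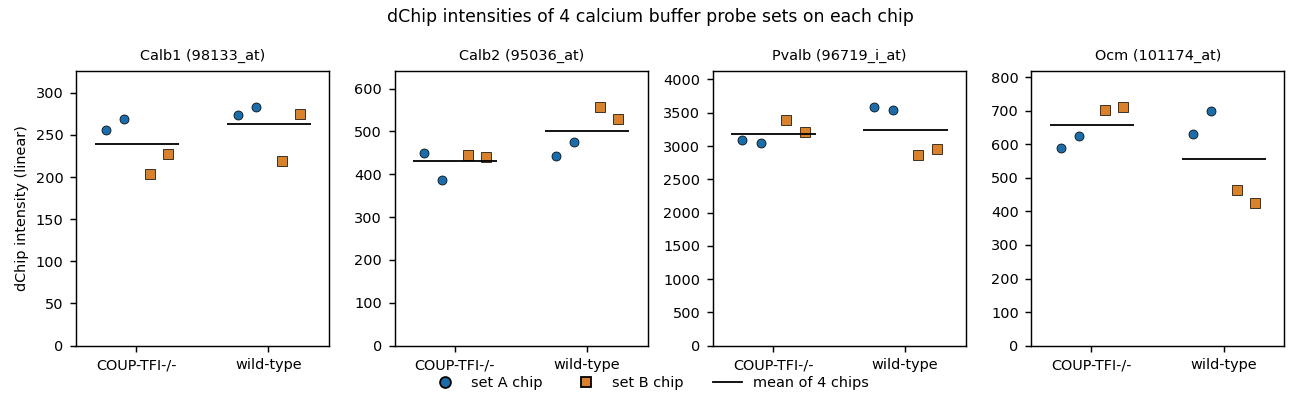
dChip intensity (linear scale, from 0) of 4 calcium buffer probe sets on each chip. COUP-TFI-/- chips are on the left and wild-type chips on the right, circles are set A, squares are set B, and the line is the mean of 4 chips. For Ocm the wild-type chips of set B, at 465 and 424, lie below the other 6 chips, and for Pvalb the squares lie above the circles in COUP-TFI-/- and below them in wild-type.

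Ocm encodes oncomodulin, the parvalbumin of outer hair cells in the mouse cochlea. Its probe set 101174_at had dChip intensities of 590 and 625 on the COUP-TFI-/- chips of set A and of 703 and 713 on those of set B. On the wild-type chips it had 632 and 699 for set A and 465 and 424 for set B. In dChip the wild-type pool of set B stood below the other 3 pools, and it was also the pool lowest in fast muscle genes. In GCRMA it was not the lowest for Ocm, at 7.51 against 7.35 for the COUP-TFI-/- pool of set B. The part of muscle tissue in the Ocm values was not tested. The dChip difference was -0.13 within set A and 0.67 within set B, with a mean of 0.27 ± 0.20 (SE, adjusted p = 1.00 from limma). The difference between these 2 values, -0.80, had an interaction p of 0.000145 and an adjusted p of 0.042 in the limma fit of the 8 chips, and Ocm was the 1 member of 12 at that level, where 0.459% of all probe sets were. With 1 pool per genotype in each set, that p measures the spread of duplicate hybridizations of the same RNA and not the spread between pools.

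GCRMA gave another picture of Ocm. The COUP-TFI-/- chips read 7.64, 7.45, 7.34 and 7.36 and the wild-type chips 7.48, 7.52, 7.54 and 7.48, in the order A1, A2, B1 and B2. Here COUP-TFI-/- was below wild-type in set B and overlapped it in set A, with differences of 0.05 within set A and -0.16 within set B and a mean of -0.05 ± 0.10 (SE, adjusted p = 1.00 from limma). The direction of Ocm in set B was thus opposite in the 2 normalizations of the same chips. In the dChip values of set B alone, with the duplicate chips as replicates, Ocm had an adjusted p of 0.0075 from limma. That test was chosen after the data were seen and compares those 2 pools only, and the share of all probe sets it called was not counted.

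Myo7a encodes myosin VIIA, a motor of the stereocilia that anchors the tip links and whose loss deafens mice and people. In GCRMA its probe set 94713_at read 8.22, 8.19, 8.13 and 8.12 on COUP-TFI-/- chips A1, A2, B1 and B2, and 8.17, 8.14, 7.96 and 7.91 on wild-type chips. In each set both COUP-TFI-/- chips were above both wild-type chips, by 0.05 within set A and 0.19 within set B. The mean difference was 0.12 ± 0.10 (SE, 95% interval -0.09 to 0.33, adjusted p = 1.00 from limma). In dChip, intensities of 365, 337, 329 and 320 on COUP-TFI-/- chips stood against 353, 358, 295 and 297 on wild-type chips, which overlapped in set A and not in set B. The dChip difference was -0.02 within set A and 0.13 within set B. The duplicate chips of Myo7a were the closest of the 12 probe sets in GCRMA, with an SD of 0.02.

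Myo6 encodes myosin VI, which moves towards the pointed end of actin and holds the base of the stereocilia. Its 3 probe sets gave 3 different patterns. 96560_at read 7.55, 7.55, 7.14 and 7.11 on COUP-TFI-/- chips A1, A2, B1 and B2 in GCRMA, and 7.57, 7.44, 7.41 and 7.45 on wild-type chips. The COUP-TFI-/- pool of set B was below every other chip, while in set A the genotypes overlapped. The difference was 0.05 within set A and -0.30 within set B, with a mean of -0.13 ± 0.11 (SE, adjusted p = 1.00 from limma), and dChip gave 0.08 within set A and -0.34 within set B.

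92382_at, in contrast, read 7.72, 7.96, 7.55 and 7.47 on COUP-TFI-/- chips and 7.72, 7.55, 7.46 and 7.36 on wild-type chips in GCRMA. Both COUP-TFI-/- chips were above both wild-type chips in each set, narrowly in set A, by 0.21 within set A and 0.10 within set B, with a mean of 0.15 ± 0.10 (SE, adjusted p = 1.00 from limma). In dChip its genotypes overlapped in both sets, with differences of 0.03 within set A and 0.02 within set B. The third, 162245_f_at, shares probes within a sequence family and read 8.18, 8.04, 7.88 and 7.94 on COUP-TFI-/- chips and 8.24, 7.90, 7.93 and 7.95 on wild-type chips. Its genotypes overlapped in both sets in GCRMA, with differences of 0.04 within set A and -0.03 within set B. Its dChip intensities were 653, 606, 704 and 765 on COUP-TFI-/- chips and 686, 667, 658 and 607 on wild-type chips. There COUP-TFI-/- was below wild-type in set A and above it in set B, with differences of -0.10 and 0.22. The 3 Myo6 probe sets thus had differences of mixed sign in set B in GCRMA and in both sets in dChip, and no single direction could be given for the gene.

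Myo1c encodes myosin IC, a motor implicated in the slow adaptation of hair cell transduction. In GCRMA its probe set 95506_at read 6.84, 7.09, 7.51 and 7.74 on COUP-TFI-/- chips A1, A2, B1 and B2, and 6.95, 6.995, 7.46 and 7.41 on wild-type chips. Every chip of set B was above every chip of set A, the genotypes overlapped in set A, and in set B both COUP-TFI-/- chips were above both wild-type chips. The genotype difference was -0.01 within set A and 0.19 within set B, with a mean of 0.09 ± 0.10 (SE, adjusted p = 1.00 from limma). In dChip the 8 intensities, 1564, 1595, 1794 and 1532 in COUP-TFI-/- and 1632, 1632, 1708 and 1629 in wild-type, overlapped in set B, while in set A both COUP-TFI-/- chips were below both wild-type chips, and the genotype differences were -0.05 within set A and -0.01 within set B.

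Promoter sequence was looked up for the members in a RefSeq table of the mouse assembly GRCm38.p6, which holds a short window around each transcript start, most of it upstream. It held 12 windows of 7 members, all but Calb1 and Calb2 of those measured. AGGTCA, the half-site that nuclear receptors such as COUP-TFI recognise, was in 0 of the 12 windows on either strand and in 16.3% of 32851 windows of all genes, and its direct repeat with 1 base between was in 0 and in 0.0396%. CAGCTG, an E-box of the kind that basic helix-loop-helix factors such as Atoh1 can bind, was in 3 of 12 windows and in 16.3% of all windows. The 3 windows belong to the motors, and the 30 bases around each match are shown because they place the E-box just after the annotated transcript starts, at base 14 and base 43 of 2 Myo7a transcripts and at base 16 of a Myo1c transcript. Capitals mark the E-box, and each stretch reads 5′ to 3′ on the strand of the gene. A match is a description of letters and not a site shown to be bound.
Myo7a, chr7:98119463-98119492, minus strand: gtgcaggctggaCAGCTGccctgaacagaa
Myo7a, chr7:98109199-98109228, minus strand: tcagaggactccgttacccacaCAGCTGcc
Myo1c, chr11:75650522-75650551, plus strand: cctggactgctcCAGCTGtgtcctgagaag

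Atoh1 encodes the basic helix-loop-helix factor that starts hair cell differentiation, and it is also active in cerebellar granule cell precursors. In GCRMA its probe set 102569_at read 6.40, 6.63, 7.14 and 6.72 on COUP-TFI-/- chips A1, A2, B1 and B2, and 6.48, 6.60, 6.78 and 6.91 on wild-type chips. The genotypes overlapped in each set, and the duplicate chips lay further apart than for any other member, with an SD of 0.18. The genotype difference was -0.03 within set A and 0.08 within set B, with a mean of 0.03 ± 0.10 (SE, 95% interval -0.18 to 0.23, adjusted p = 1.00 from limma). dChip intensities were 92.7, 109, 165 and 147 on COUP-TFI-/- chips and 101, 116, 149 and 149 on wild-type chips, with a mean difference of -0.02. Differences within the bounds of that GCRMA interval could not be resolved with 2 pools per genotype.

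Gfi1 encodes a zinc finger repressor of hair cells and of blood cell precursors. Its probe set 103259_at lay low on the chips, above 16.6% of all probe sets in GCRMA and 10.5% in dChip. It read 5.43, 5.20, 5.33 and 5.15 on COUP-TFI-/- chips and 5.35, 5.28, 5.07 and 5.14 on wild-type chips in GCRMA, in the order A1, A2, B1 and B2. In set A the genotypes overlapped, and in set B both COUP-TFI-/- chips were above both wild-type chips, one of them by less than the spread of the duplicates. The difference was 0.00 within set A and 0.13 within set B, and the dChip difference was -0.25 within set A and 0.03 within set B. Of 25 myeloid and lymphoid genes, 23 were measured, with a median difference of 0.06 and summed levels of 3593 to 3973 on COUP-TFI-/- chips and 3526 to 3878 on wild-type chips. How far the Gfi1 values and those of Pvalb 96720_f_at stood above background was not measured here.

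**Figure D3:**
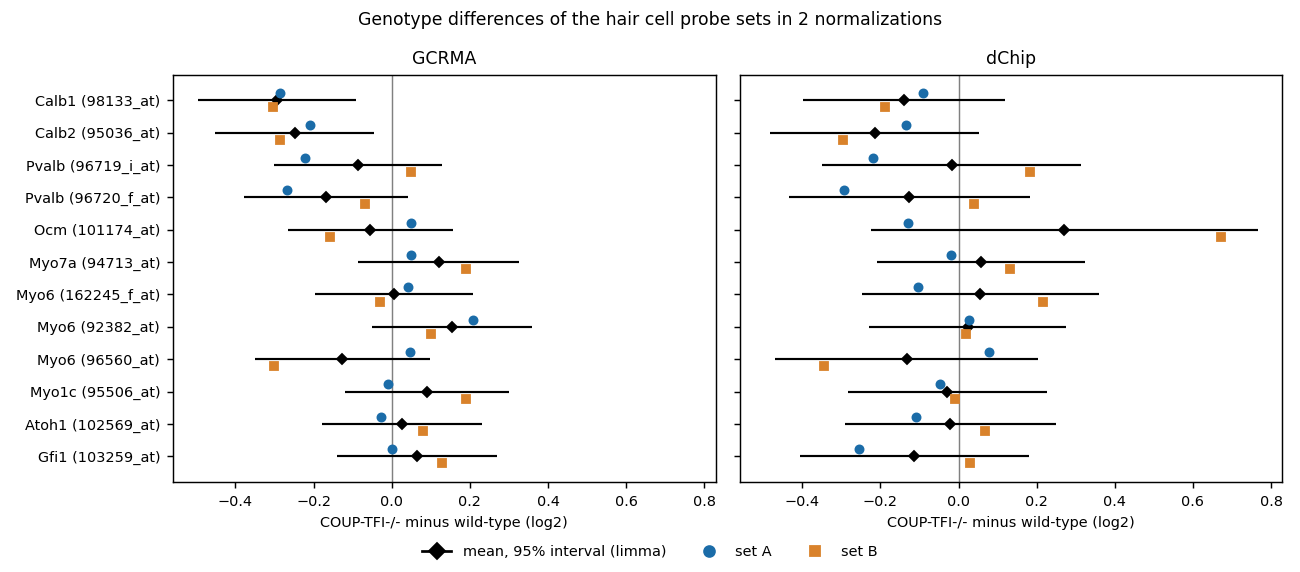
Genotype difference in log2 units (COUP-TFI-/- minus wild-type) of the 12 probe sets in GCRMA (left) and dChip (right). Diamonds are the mean over both sets with the 95% interval from limma, circles are set A and squares are set B. In GCRMA the intervals of Calb1 and Calb2 lie below 0 and in dChip every interval crosses 0.

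By direction alone, 3 of the 12 probe sets were lower in COUP-TFI-/- in both sets in GCRMA, against 21.4% of all probe sets, and 3 were higher, against 24.2%. In dChip 3 were lower in both sets, Calb1, Calb2 and Myo1c, against 22.6% of all probe sets, and 1 was higher, Myo6 92382_at, against 21.1%. In 3 of 12 in GCRMA, Calb1, Calb2 and Pvalb 96720_f_at, both COUP-TFI-/- chips were below both wild-type chips in each set, as in 3.65% of all probe sets. In 2 of 12, Myo7a and Myo6 92382_at, both were above, as in 4.60% of all probe sets. In dChip 0 of 12 were apart downwards in each set, against 4.06% of all probe sets, and 0 of 12 upwards, against 4.09%.

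The study first selected genes in each normalization with a 2-way analysis of variance of the 8 chips, asking for a genotype effect (p under 0.01) and no interaction (p over 0.01). With these thresholds in limma, where duplicate chips count as replicates and the p-values measure their spread, 3 of 12 members passed in GCRMA, Calb1, Calb2 and Pvalb 96720_f_at, against 3.59% of all probe sets. All 3 were lower in COUP-TFI-/-, as 1.58% of all probe sets on that rule were. In dChip 0 of 12 passed, against 2.95% of all probe sets. With the 2-way analysis of variance itself, which has no moderated variance, 2 of 12 passed in GCRMA, Calb2 and Myo7a, against 2.06% of all probe sets, and 0 of 12 in dChip, against 2.00%. For its final list of 176 probe sets, the study asked for a genotype p under 0.01 in 1 normalization, a p under 0.05 in the other and no interaction. With no interaction asked in both, Calb2 alone of the 12 met this final rule, with limma and with the analysis of variance. Of all probe sets, 2.42% met it with limma and 1.42%, which is 176, with the analysis of variance.

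Whether the genotype difference was the same in sets A and B was tested as the interaction in the limma fit of the 8 chips, against the spread of duplicate chips only. At a p under 0.01, 1 of 12 members passed in GCRMA, against 6.01% of all probe sets. This was Myo6 96560_at, whose genotype difference was higher in set A by 0.35 (adjusted p = 0.16 from limma). No member passed an adjusted p under 0.05 in GCRMA, where 0.958% of all probe sets did. In dChip 3 of 12 passed, Pvalb 96719_i_at, Ocm and Myo6 96560_at, against 8.37% of all probe sets. Of these 3, Ocm passed the adjusted p. With the analysis of variance 2 of 12 passed a p under 0.01 in GCRMA, Myo6 96560_at and Pvalb 96720_f_at, against 4.03% of all probe sets, and 3 of 12 in dChip, against 5.39%. Myo6 96560_at was the 1 probe set with an interaction in both normalizations. Its dChip intensities were 390 and 384 on COUP-TFI-/- chips and 359 and 374 on wild-type chips of set A. On the chips of set B they were 307 and 312 in COUP-TFI-/- and 373 and 414 in wild-type, so the COUP-TFI-/- pool of set B stood below the other 3 pools.

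The hybridization sets differed more than the genotypes for several members. The median absolute difference between sets A and B was 0.16 for the members and 0.16 for all probe sets in GCRMA. At an adjusted p under 0.05 from limma, 4 of 12 members differed between sets in GCRMA, where 25.8% of all probe sets did, and 1 of 12 in dChip, where 11.7% did. Higher in set A were 2 of 12, against 13.6% of all probe sets: Calb1 by 0.36 (adjusted p = 0.012) and Myo6 92382_at by 0.28 (adjusted p = 0.044). Higher in set B were also 2 of 12, against 12.2%: Myo1c with, as set A minus set B, -0.56 (adjusted p = 0.00072) and Atoh1 with -0.36 (adjusted p = 0.013). In dChip the set difference of Atoh1 was -0.55 (adjusted p = 0.036), that of Calb1 0.23, that of Myo6 92382_at 0.32 and that of Myo1c -0.05, the last 3 not past the threshold. Atoh1 was thus the 1 member called between sets in both normalizations, and for Myo1c the set difference was seen in GCRMA and not in dChip.

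**Figure D4:**
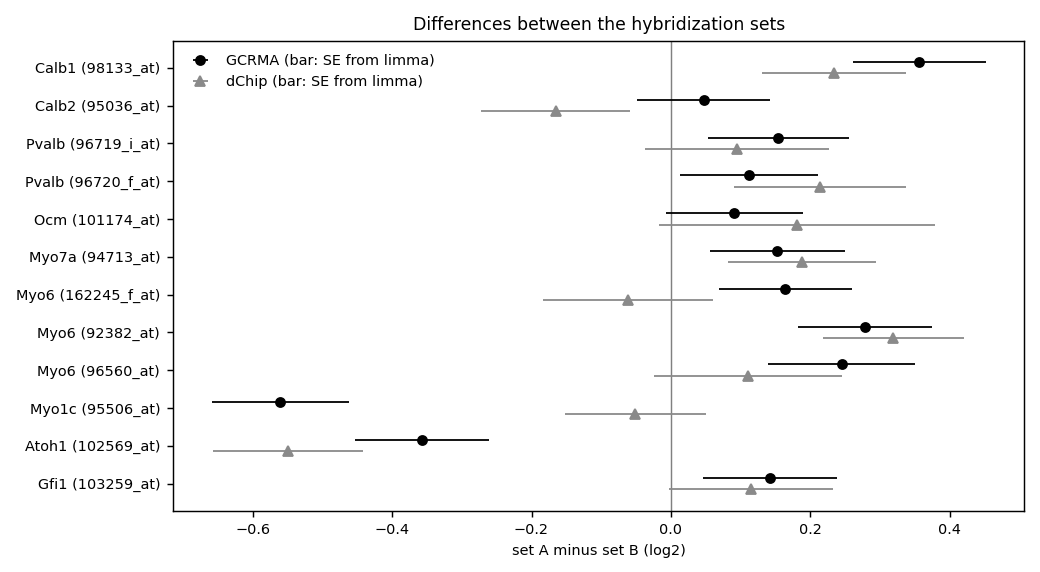
Difference between the hybridization sets, set A minus set B on the log2 scale, of the 12 probe sets. Circles are GCRMA and triangles are dChip, and bars are the SE from limma. Atoh1 lies below 0 in both normalizations, and Myo1c lies at -0.56 in GCRMA and at -0.05 in dChip.

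Other markers of the tissue also differed between sets. Of the 24 ganglion neuron genes 17 were called higher in set A and 0 higher in set B, and of 18 supporting cell genes 8 were higher in set A and 2 in set B. Of 17 measured genes of the inner ear, such as cochlin and the tectorins, 9 were higher in set A and 0 in set B. Tecta, Tectb, Gjb2 and Gata3 are in both the supporting cell and the inner ear list, and each was called higher in set A. Calb1 had the direction of the neuron, supporting cell and inner ear lists, and Atoh1 and Myo1c had the opposite one. The part of dissected tissue in the set differences was not tested.

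Other genes of hair cells showed no genotype call. Of 50 listed, 12 had a probe set, and 0 of them passed at an adjusted p or at an unadjusted p under 0.05 in GCRMA or dChip. In COUP-TFI-/-, 7 were lower and 5 higher, with a median of -0.01 beside 0.00 for all probe sets, and 3 of the 12 lay in the lowest 25% of the chip. The sets differed in direction, with a median of 0.09 within set A and -0.11 within set B. The largest differences were those of Insm1, a factor of the outer hair cell fate, at -0.13 and of Bdnf, a neurotrophin made by vestibular and cochlear hair cells, at 0.12. In GCRMA these were smaller in size than the differences of Calb1 and Calb2, whereas in dChip Jag2, at 0.17, and Kcnma1, at 0.15, had larger ones than Calb1, at -0.14. Between sets, Kcnma1, the large-conductance potassium channel, was higher in set A by 0.94 and Bdnf by 1.09, while Myh9 and the Notch ligand Jag2 were lower in set A with differences of -0.39 and -0.35, all past the adjusted p. None of the 17 inner ear genes lay in the lowest 25% of the chip, and 2 of them, Tectb and Gjb2, were lower in COUP-TFI-/- at an unadjusted p under 0.05. Both are also in the supporting cell list.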

How the data were processed

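Whole inner ears of newborn COUP-TFI-/- and wild-type mice were profiled on 8 Affymetrix MG-U74Av2 chips. The authors normalized the chips with GCRMA, deposited as log2 values, and with dChip, deposited as linear intensities. Raw probe intensities were not used, and the versions of the normalization software are not given in the sources used here. Arrays give no counts, and precision is limited by how few pools and chips there are. The letter of a chip was read as its hybridization set and the number as its duplicate.

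The 66 Affymetrix control probe sets among 12488 were removed, which leaves 12422 for GCRMA and 12421 for dChip. In the platform annotation 10833 carry a single symbol, 396 more than 1 and 1193 no symbol. Before log2, 89 dChip values lower than 1 were raised to 1. Duplicate chips were averaged per RNA pool, and limma 3.58.1 in R 4.3.3 was fitted with genotype and set across all probe sets, 2-sided, with Benjamini-Hochberg adjustment over all of them. The residual degrees of freedom are 1, and the prior adds 14.3 for GCRMA and 4.55 for dChip. Interactions and the study's thresholds used limma on the 8 chips, with the methods' 2-way analysis of variance as an alternative. Nothing says more of the pools than that tissue of several animals was combined, so no p-value measures the spread between single animals. The p-values from pool means rest largely on the variance that limma pools over the whole chip. Those of the interactions and of the study's thresholds measure the spread of duplicate chips. The fit of pool means was tested on simulated data, with added differences larger than those of the members. The fits of the 8 chips were not tested in this way.

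By the methods each set holds 1 pool of each genotype, so the sets pair the pools. Across probe sets, the difference between the sets in COUP-TFI-/- correlated with that in wild-type at r = 0.752 in GCRMA and 0.688 in dChip.

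The rule for named genes takes all probe sets of the members, Nr2f1, and from each list up to 4 genes whose unadjusted p is under 0.05 (where no gene is, the 2 with the largest differences). Genes with set differences were named by their adjusted p, and Gad2 for its dChip difference. Lists used 1 probe set per gene, that with the highest mean. Members and lists were chosen with earlier results of these data known.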

Additional observations from a re-analysis of the deposited data

Results flagged for a closer look

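Among 48 groups of 4 chips, 4 had 1 chip far from the other 3, by a gap that chance gives in about 5% of such groups. Calb2 read 387 in dChip on COUP-TFI-/- chip A2, below the other 3 COUP-TFI-/- chips. Calb1 read 219 in dChip on wild-type chip B1, below the other wild-type chips. Myo6 162245_f_at read 8.24 in GCRMA on wild-type chip A1, above the others, and Myo1c read 1708 in dChip on wild-type chip B1, also above the others. The chips of a group span both sets, so a gap can also stand between sets.

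For 5 values the genotype difference, COUP-TFI-/- minus wild-type, stood apart between the pools of set A and those of set B, either at an interaction p under 0.01 in the limma fit of the 8 chips or because the chips of each set were apart in opposite directions. Set A minus set B was 0.35 for Myo6 96560_at in GCRMA (adjusted p = 0.16 from limma) and 0.42 in dChip (adjusted p = 0.093). It was -0.40 for Pvalb 96719_i_at (adjusted p = 0.087), -0.80 for Ocm (adjusted p = 0.042) and -0.32 for Myo6 162245_f_at (adjusted p = 0.18), all in dChip by limma. Of the 24 interactions computed for the members, that of Ocm in dChip passed the adjusted p. With 1 pool per genotype in each set, these p-values cover the spread of duplicate chips only, and differences between pools of 1 genotype were not measured within a set. In GCRMA the value for Ocm was 0.21 (adjusted p = 0.42 from limma).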

How the results depend on the processing

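The count of members called for genotype stayed 0 in GCRMA and in dChip under every alternative on pool means, chips or scaling, including 0 with no replicate block, where the unadjusted limma p of Calb1 was 0.19 and that of Calb2 0.079, against 0.0072 and 0.020 with the set as a block. The lowest adjusted p over the alternatives was 0.063 for Calb1 and 0.055 for Calb2, both with limma on the 8 chips, and their directions held in all 17. An exception was set B alone, with duplicate chips as replicates, an alternative chosen after seeing the data. There dChip called 2 members, Ocm at 0.67 and Myo6 96560_at at -0.34. The share of all probe sets called in that test was not counted, so these calls have no background beside them. The filter on low values left out Pvalb 96720_f_at and Gfi1.

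The set calls in GCRMA, 4, were 1 in dChip and 2 to 4 without 1 chip, the lowest without COUP-TFI-/- replicate A1. The call of Myo6 92382_at was lost in 10 of 16 alternatives, and that of Atoh1 without COUP-TFI-/- replicate A1 (adjusted p = 0.069 from limma) or B1 (0.078) and with the analysis of variance (0.11). The GCRMA interactions at a p under 0.01, 1, were 3 in dChip, 2 with the analysis of variance, 0 with a prior trend and 0 to 1 without 1 chip. The members that passed the thresholds of the study's first selection with limma in GCRMA, 3, were 0 in dChip and 2 without any 1 chip. With the analysis of variance that the study used, 2 members passed these thresholds in GCRMA, Calb2 and Myo7a.

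Directions turned where differences were small. With dChip in place of GCRMA the genotype difference was 0.27 for Ocm, -0.028 for Myo1c, -0.021 for Atoh1 and -0.11 for Gfi1, and the set difference -0.17 for Calb2 and -0.062 for Myo6 162245_f_at. The genotype difference of Myo6 162245_f_at was -0.0016 with centred chips and -0.0097 with quantile normalization. Without 1 chip, it ranged from -0.080 to 0.091 in GCRMA, and that of Atoh1 from -0.078 to 0.13 in GCRMA and -0.079 to 0.037 in dChip. In dChip, Myo1c ranged from -0.085 to 0.029, Myo6 92382_at from -0.051 to 0.098 and Pvalb 96719_i_at from -0.037 to 0.00098. The cause was not tested.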
